A study of Mus musculus with 56 samples.

Results

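Medullary thymic epithelial cells (mTECs) of mice at day 12 after delivery (D12, 3 samples) were compared with mTECs at day 6 (D6, 3 samples), so the comparison rests on 6 of the 56 samples of the series, taken by their cell type and time point labels. Single mTEC samples of D8 and D10 were read only as values in between, and the cTECs of the same time points (3 samples each) served as the other thymic epithelial lineage. The series followed thymic regrowth after pregnancy by RNA sequencing of cortical (cTEC) and medullary epithelial cells from non-pregnant controls, from late gestation and through the postpartum period. All mothers were B.6SJL-Ptprca Pep3b/BoyJ-CD45.1 (B6.SJL) females mated with BALB/cJ males, and in every postpartum group the pups were taken away at birth, so none of these mothers was nursing. Each replicate came from 1 mouse, digested with papain, collagenase IV and DNase, enriched with anti-EpCAM beads and sorted as EpCAM+CD45- cells that bound the lectin UEA1 (cTECs did not), and polyadenylated RNA was sequenced. The age of the mothers was not given in the labels.

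mTECs form the thymic medulla and present self antigens to developing T cells. Mature mTECs carry the transcription factor AIRE, which drives expression of genes otherwise restricted to other tissues, and high MHC class II and CD80. Some go on to resemble keratinocytes, gut microfold cells, enterocytes, tuft cells and other peripheral cells. FOXN1 is the master regulator of thymic epithelium, and genes under its control such as *Psmb11*, *Prss16*, *Ccl25* and *Dll4* are best known from cTECs, where they serve the attraction, commitment and positive selection of thymocytes.

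Transcripts best known from cTECs, many of them under FOXN1, were lower at D12 than at D6. Transcripts of peripheral tissues and of cell division were higher at D12, while markers of mTEC maturation were uneven. *Ccl11*, which encodes the eosinophil chemoattractant eotaxin-1, rose, and *Fn1*, which encodes the matrix protein fibronectin, fell. The strict test was passed by few genes. Of 17743 genes tested, 3 were called (0.0169%), 1 higher (0.00564%) and 2 lower (0.0113%), by a change of 2-fold or more together with a Benjamini-Hochberg adjusted p no higher than 0.01 in limma-voom, fitted over the 18 mTEC samples of the replicated time points. With the limit on the adjusted p raised to 0.05 and the same fold there were 19 genes (0.107%), 4 higher (0.0225%) and 15 lower (0.0845%), and 1527 genes (8.61%) had an unadjusted p under 0.05, 841 of them higher (4.74%) and 686 lower (3.87%). A change is called below only if it passed the first of these thresholds, and all other differences are given as values. The number of calls depended on the tool and on single samples: the edgeR quasi-likelihood test called 0 genes (1148 with an unadjusted p under 0.05), DESeq2 called 57, and leaving out 1 of the 6 samples gave 0 to 27, with 27 without D6 replicate 1 and 0 without D12 replicate 2, D12 replicate 3 or D6 replicate 3. Levels are in FPKM, that is scaled by transcript length and by the fragments sequenced. Fold changes and their standard errors (SE) are on the log2 scale of the fitted counts, D12 relative to D6.

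The sorted populations carried the markers of their label. *Epcam* lay between 149.5 and 193 FPKM in the 6 samples, *Krt5* between 2693 and 4819, *Krt14* between 862 and 1156 and *Fezf2* between 180.1 and 189.6. *Ptprc*, which encodes CD45, stayed at or under 1.67 FPKM, *Cd3e* at or under 0.98 and the endothelial *Pecam1* at or under 1.46. Other transcripts known from such cells were present. The list of thymocyte transcripts summed to 82.1 to 120.5 FPKM at D6 and 90.2 to 119.5 at D12, and the myeloid *Lyz2* ran from 8.29 to 90.3. Total expected counts were 4561208 to 16023121 at D6 and 10538497 to 41988256 at D12, and 33905031 and 59026708 in the D8 and D10 samples. Among the D6 samples, replicate 1 lay nearest to D12: for 1158 of the 1527 genes with an unadjusted p under 0.05 it deviated from the other 2 D6 samples towards D12, against 280 for replicate 2 and 613 for replicate 3. These genes were picked by the difference itself, and over all 17743 genes tested the counts were 11920, 8763 and 9421. The D12 samples were less alike than the D6 samples. In log2 counts their correlations were 0.80 to 0.868 among D12 samples and 0.914 to 0.966 among D6 samples. D6 replicate 1 and D12 replicate 2 correlated at 0.926. The libraries are bulk RNA, so fewer cells of a type and less RNA per cell cannot be told apart in any value that follows.

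The FOXN1 list holds 14 genes, the regulator itself and genes known from cTECs, and all 14 had a log2 fold change below 0, from -3.17 for *Psmb11* to -0.29 for *Cd83*, with a median of -1.23 against 0.00 over all genes tested. The value of *Cd83* turned to 0.083 without D6 replicate 2. The list includes *Il7*, which the paper treats as independent of FOXN1, and *Kitl*, for which it calls the dependence unclear. None of the 14 was called. An adjusted p ≤ 0.05 with a fall of 2-fold or more was reached by 6 of them, *Psmb11*, *Prss16*, *Tbata*, *Ccl25*, *Cxcl12* and *Ctsl*. That was so for 0.0845% of all genes tested. The count was 0 in the edgeR quasi-likelihood test and without D12 replicate 2, D12 replicate 3, D6 replicate 2 or D6 replicate 3. Over all alternatives described below it ran from 0 to 11, with 11 under sample quality weights. In 10 of the 14 every D12 sample lay below every D6 sample, which was so for 6.92% of all genes tested. The members and the list were chosen with earlier results of these data known, so the counts describe the list and are no independent support for it.

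Promoters of 3 of these genes are shown because the genes were lower together and a short DNA core, GACGC, is known to be bound by FOXN1. They are the RefSeq sequences of GRCm38.p6 from 250 bases before to 50 bases after the gene start, read 5′ to 3′ on the strand of the gene, with GACGC and its reverse complement GCGTC in capitals. *Psmb11* (chr14:54625060-54625359, + strand) and *Ccl25* (chr8:4324960-4325259, + strand) each hold 2 matches and *Tbata* (chr10:61171714-61172013, + strand) holds none.
Psmb11: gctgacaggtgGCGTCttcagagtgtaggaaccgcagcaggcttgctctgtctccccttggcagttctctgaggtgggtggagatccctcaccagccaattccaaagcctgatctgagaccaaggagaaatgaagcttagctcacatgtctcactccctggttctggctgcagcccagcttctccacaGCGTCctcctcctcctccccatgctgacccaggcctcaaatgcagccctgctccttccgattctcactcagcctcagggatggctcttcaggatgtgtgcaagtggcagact
Ccl25: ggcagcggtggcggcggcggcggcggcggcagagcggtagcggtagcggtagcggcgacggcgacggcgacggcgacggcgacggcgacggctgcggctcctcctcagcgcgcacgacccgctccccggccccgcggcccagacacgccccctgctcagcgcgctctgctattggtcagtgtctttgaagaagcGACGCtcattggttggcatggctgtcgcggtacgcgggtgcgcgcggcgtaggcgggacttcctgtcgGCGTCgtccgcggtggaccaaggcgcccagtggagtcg
Tbata: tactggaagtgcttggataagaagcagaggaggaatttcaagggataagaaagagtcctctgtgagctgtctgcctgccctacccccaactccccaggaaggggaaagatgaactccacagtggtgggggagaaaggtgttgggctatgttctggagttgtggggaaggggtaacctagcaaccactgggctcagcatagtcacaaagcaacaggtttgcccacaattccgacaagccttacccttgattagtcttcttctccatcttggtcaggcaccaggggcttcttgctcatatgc
Promoters were matched by symbol for 11 of the 14 genes, and 6 of the 11 hold the core on either strand. The same 5 letters occur in 27.4% of all 27025 promoters of this length and in 42.3% of the 12336 that belong to genes tested here. The letters are given as a description of these windows.

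*Prss16* encodes a serine protease of the thymus that prepares peptides for MHC class II. It stood at 242, 624 and 377 FPKM in the 3 D6 samples, at 281 at D8, 103 at D10 and 179, 60.1 and 63.1 at D12. The highest D12 sample was below the lowest D6 sample, and D10 already fell within the D12 range. The log2 fold change was -2.30 (SE 0.36) with an adjusted p of 0.01003 in limma-voom, just outside the threshold, which *Tmem131l* also missed with the same adjusted p. *Psmb11*, the β5t subunit of the thymoproteasome, had 53.9, 178 and 108 FPKM at D6 and 32.04, 6.80 and 10.6 at D12, with 65.01 and 18.2 at D8 and D10. It showed the widest gap of the list (log2 -3.17, SE 0.58, adjusted p 0.0312), and its D6 samples were also the most spread of the 6 genes plotted.

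*Tbata* encodes a protein of thymic epithelium and testis linked to epithelial proliferation. Its D6 samples held 1133, 1954 and 1462 FPKM, its D12 samples 582, 286 and 384, and D8 and D10 gave 1335 and 464. The groups did not overlap, and the D10 sample lay within the D12 range, at log2 -1.85 (SE 0.30) and an adjusted p of 0.0109. *Ccl25*, the chemokine that draws thymocyte progenitors through CCR9, was at 688, 1662 and 1168 FPKM at D6, 698 at D8, 342 at D10 and 446, 283 and 340.3 at D12 (log2 -1.67, SE 0.28, adjusted p 0.016). *Cxcl12*, the ligand of CXCR4, was at 108, 192 and 126 FPKM against 90.1, 42.8 and 50.2, and *Ctsl*, which encodes the lysosomal protease cathepsin L of class II antigen processing, was at 1284, 1895 and 1558 against 891, 572 and 675. Their adjusted p-values were 0.0479 and 0.0359, at log2 -1.38 (SE 0.27) and -1.18 (SE 0.22).

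**Figure D1:**
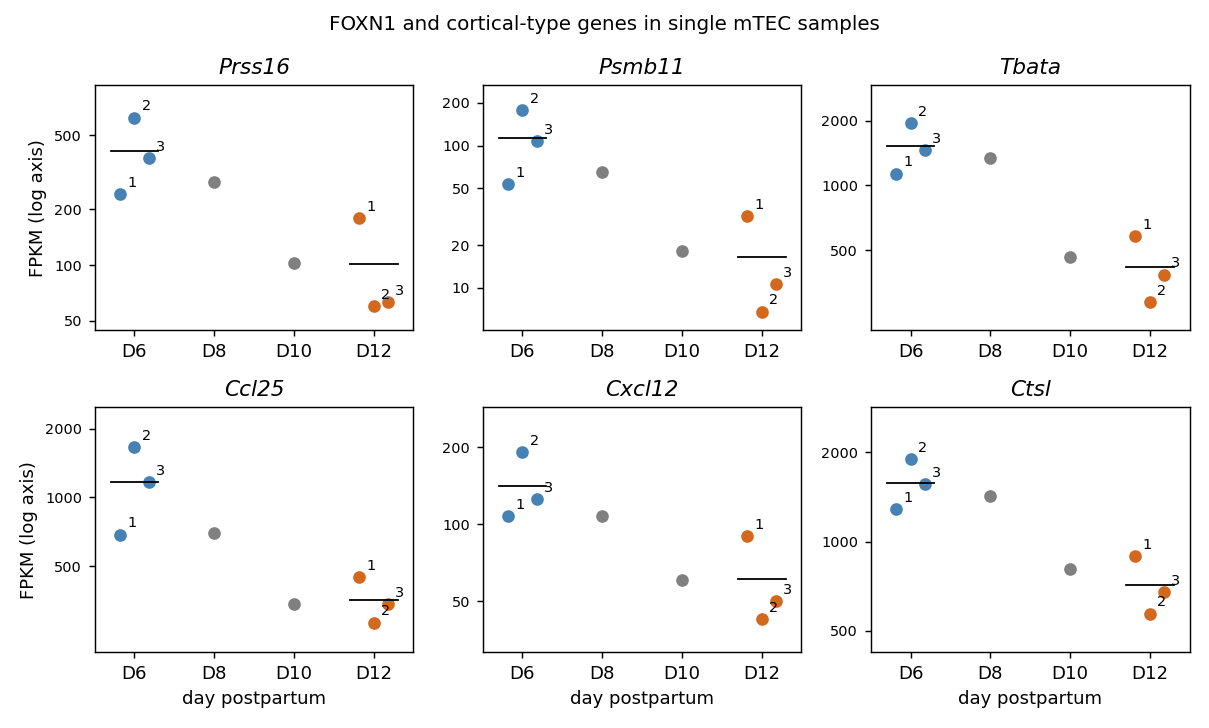
FPKM of 6 genes of the FOXN1 list in single mTEC samples, on log axes, at D6 (3 samples, numbered by replicate), D8 (1), D10 (1) and D12 (3), with a bar at the mean of each group of 3. In all 6 panels the D12 samples lie below the D6 samples, D6 replicate 1 is the lowest D6 sample, and the D10 sample lies within the D12 range; *Prss16* ran from 624 down to 60.1.

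The remaining members followed with smaller or less certain differences. *Foxn1* itself was at 148, 260.2 and 192 FPKM at D6 and 125, 104 and 117 at D12, without overlap, and was not called (log2 -0.77, SE 0.32, adjusted p 0.474). *Dll4*, the NOTCH ligand that commits progenitors to the T lineage, gave 12.5, 28.3 and 14.7 against 10.1, 4.85 and 8.42 (adjusted p 0.0827), and *Il7*, the survival cytokine of early thymocytes, 116, 202 and 183 against 100.3, 66.05 and 79.9 (adjusted p 0.163). *Cnmd*, which encodes chondromodulin, was at 39.1, 58.5 and 39.5 against 19.8, 18.2 and 29.6 (adjusted p 0.223). In *Ly75*, *Enpep*, *Cd83* and *Kitl* the groups overlapped. *Kitl*, which encodes stem cell factor, had one D12 sample at 21.5 FPKM and the others at 2.31 and 6.83, although its fitted counts were lower at D12 (log2 -1.19, adjusted p 0.305), so its FPKM and its counts disagreed in that sample.

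The D12 levels of these genes were set beside those of mTECs from non-pregnant controls (NPC, 3 samples). *Ccl25* had a mean of 356 FPKM ± 82.99 (SD, n = 3) at D12 and 379.8 ± 70.9 in NPC, and *Psmb11* 16.5 ± 13.6 and 20.03 ± 10.6. *Prss16* had 101 ± 67.99 and 151 ± 20.1, and *Tbata* 417 ± 151 and 630.5 ± 144. For all 4 the difference between the D12 and NPC means was smaller than that between the D12 and D6 means, and D12 was not tested against NPC here.

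The cTECs of the same days gave the level of these transcripts in the cells where they are best known. In mTECs at D6 the mean of *Prss16* was 14.6% of that in D6 cTECs, of *Psmb11* 32.5%, of *Ccl25* 36.1% and of *Tbata* 44.5%. At D12 the same shares were 3.69%, 5.24%, 9.79% and 13.9%. Over the 14 genes the median share was 32.3% at D6 and 12.4% at D12. *Cnmd* stood apart, at 239% of the cTEC level at D6 and 295% at D12, and *Il7* was at 138% and 81.3%. How far cTECs carried over in the sort contribute to these levels was not tested.

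Within cTECs the fitted log2 fold changes of the 14 genes ran from -1.22 for *Cnmd* to 0.29 for *Foxn1*, and *Dll4*, *Kitl* and *Ly75* were at -0.67, -0.62 and -0.60. The value was 0.05 for *Prss16*, -0.03 for *Psmb11*, -0.07 for *Tbata* and 0.25 for *Ccl25*. The difference between the mTEC and the cTEC change was tested as an interaction over the 36 samples of both cell types at the replicated time points. It passed the thresholds for 1 of 18394 genes (0.00544%), *Fn1*, and 6 genes (0.0326%) passed at adjusted p ≤ 0.05. *Prss16* was among the 6, with an interaction of -2.46 (SE 0.43, adjusted p 0.0173), while *Tbata* (-1.90, adjusted p 0.0659), *Psmb11* (-3.30, adjusted p 0.0708) and *Ccl25* (-2.03, adjusted p 0.0708) missed it.

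*Fn1* (chr1:71585520-71653200, - strand) was called in both tests. In mTECs it was at 123, 178 and 128 FPKM at D6, 109 at D8, 72.2 at D10 and 85.05, 48.9 and 77.7 at D12. Every D12 sample lay below every D6 sample, the D8 sample stood between the groups and the D10 sample within the D12 range. It fell by 1.44 on the log2 scale (SE 0.21, adjusted p 0.00609 in limma-voom). In cTECs its log2 fold change was 0.34, and the interaction was -1.90 (SE 0.29, adjusted p 0.00367). Leaving out D12 replicate 2, D12 replicate 3 or D6 replicate 2 ended that call, with adjusted p-values of 0.0466, 0.0261 and 0.0537, and over all alternatives tried the adjusted p of the interaction ran from 5.52e-07 to 0.0714.

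Other matrix genes of mTECs divided. Of 17 tested on the extracellular matrix list, 11 were higher and 6 lower at D12, and *Fn1* was the one called. *Tnc*, which encodes tenascin C, was at 331, 333 and 315 FPKM against 203, 190.5 and 170.5 (log2 -0.79, adjusted p 0.119). *Sparc*, which encodes osteonectin, was at 98.2, 88.5 and 108 against 143, 133 and 121 (log2 0.46, adjusted p 0.488), and *Col4a1*, a basement membrane collagen, overlapped between the groups. Neither *Tnc* nor *Sparc* overlapped between groups, and neither was called.

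Further genes were lower at adjusted p ≤ 0.05. *Gas6*, which encodes a ligand of the TAM receptors, was at 401, 606 and 581 FPKM at D6 and 312, 209 and 236 at D12. *Synm*, which encodes the intermediate filament protein synemin, was at 37.5, 61.6 and 51.8 and 27.9, 21.2 and 20.6, and its change also differed from that in cTECs (interaction -1.40, SE 0.25, adjusted p 0.0173). *Trpm2*, a cation channel gene, was at 18.4, 42.4 and 29.8 and 9.87, 7.72 and 11.9, *Clic5*, an intracellular chloride channel family member, at 28.3, 62.05 and 37.4 and 22.6, 13.5 and 9.73, *Slco2b1*, an organic anion transporter, at 35.8, 57.8 and 46.5 and 20.6, 10.3 and 16.4, and *Ltbp4*, which encodes a TGF-β binding protein of the matrix, at 35.3, 51.3 and 52.2 and 24.3, 12.7 and 24.04. None of these groups overlapped, and the log2 fold changes of the 6 genes ran from -1.87 to -1.07. The other 2 of the 15 lower genes were *Tmem131l*, whose groups overlapped in FPKM, and *Gm45837*. *Tmem131l* stood at 147 FPKM in D12 replicate 1 and at 45.5 and 54.4 in the others, although its fitted counts were lower at D12 (log2 -1.455). *Gm45837* was called, with 4.30, 2.64 and 5.76 FPKM at D6 and 0 in D8, D10 and all D12 samples, but its gene model spans *Pde2a* and *Arap1* on the same strand, so its reads cannot be told from theirs, and no fold is given for it.

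*Ccl11* (chr11:82057823-82062955, + strand) was the gene called as higher. It held 257, 167 and 234 FPKM at D6, 336 at D8, 513 at D10 and 579, 567 and 595 at D12. The D12 samples lay close together, all above the D6 samples, and D8 and D10 fell between the groups in the order of the days. It rose by 1.45 on the log2 scale (SE 0.21, adjusted p 0.00609 in limma-voom). cTECs showed a log2 fold change of 1.14 for it, and the difference between the cell types was 0.20 (SE 0.52, adjusted p 0.962). The NPC mTECs held 556 ± 94.9 FPKM (SD, n = 3).

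**Figure D2:**
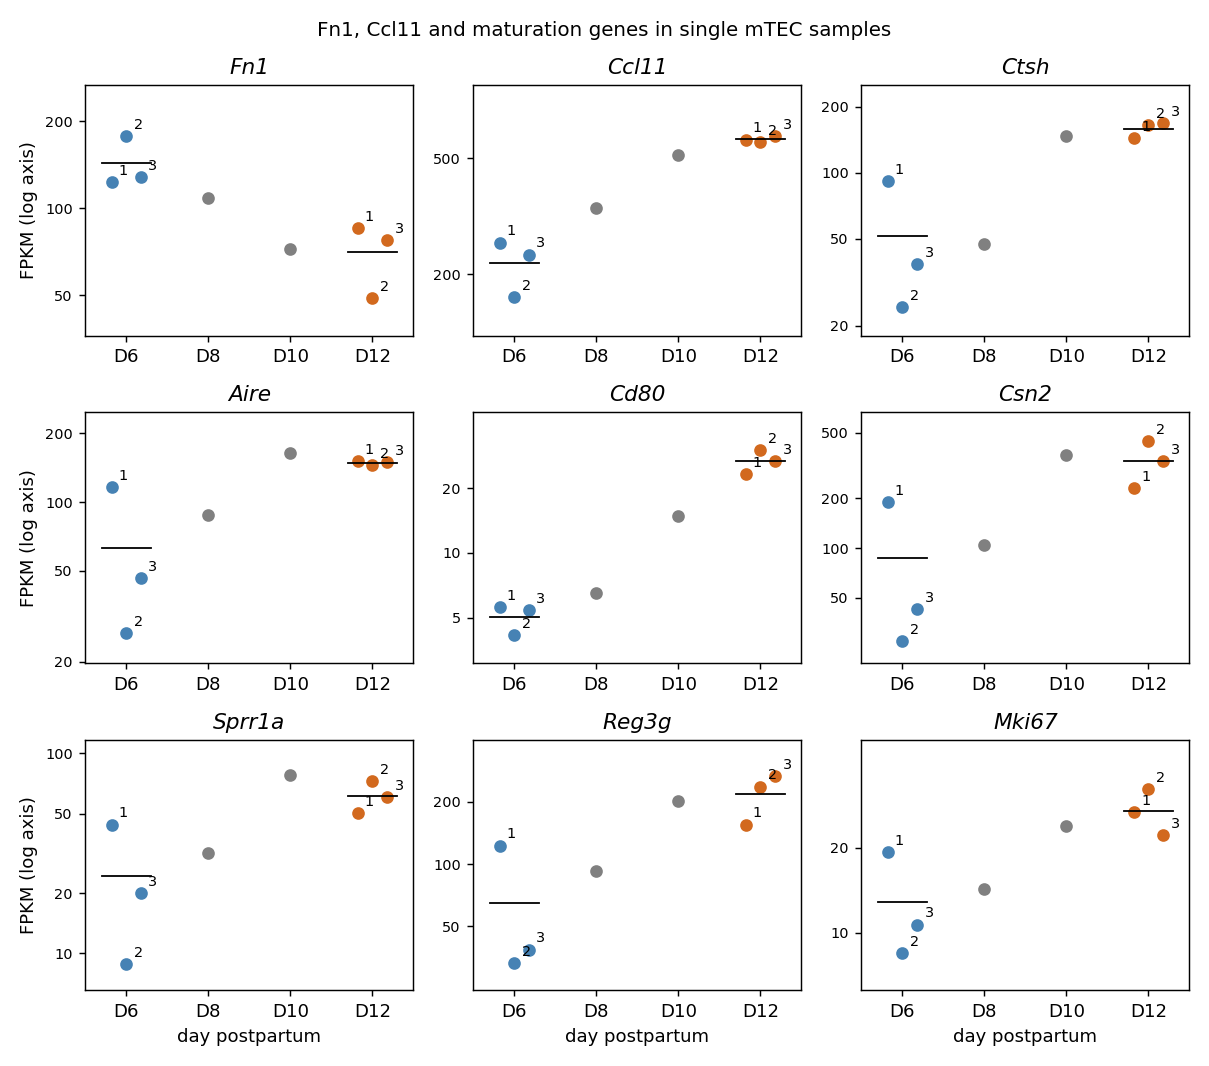
FPKM of 9 genes in single mTEC samples on log axes at D6 (3 samples, numbered by replicate), D8 (1), D10 (1) and D12 (3), with a bar at the mean of each group of 3. *Fn1* fell from between 123 and 178 to between 48.9 and 85.1 and *Ccl11* rose to between 567 and 595. The 7 other genes, of which none was called, have every D12 sample above every D6 sample, with D6 replicate 1 the highest D6 sample in each of them.

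The other 3 genes higher at adjusted p ≤ 0.05 were *Sprr2a2*, *Ncf1* and *Abcc2*. *Sprr2a2*, which encodes a small proline-rich protein of the cornified envelope, was at 621, 245 and 505 FPKM at D6 and 1592, 1315 and 1660.0 at D12 (log2 1.85, SE 0.31, adjusted p 0.016). Its model overlaps that of *Sprr2a1*, a close copy, so the split of reads between the copies is uncertain. *Ncf1*, a subunit of the phagocyte NADPH oxidase, was at 36.8, 5.58 and 13.96 against 77.4, 65.7 and 78.6 (adjusted p 0.0479). *Abcc2*, a multidrug transporter of liver and gut, was at 0, 0 and 0.12 at D6 and 1.95, 1.06 and 1.32 at D12, a low level at which the fitted fold depends on a few reads.

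Below that threshold, the higher genes with the lowest p were taken from those without overlap between the groups. Their separation in every sample was therefore set by the choice. *Ank*, *Ctsh*, *Ckmt1*, *Srgn*, *Tkt*, *Ubd*, *Arsb*, *Hdc* and *Skint1* had log2 fold changes from 1.11 to 2.16 and adjusted p-values from 0.0527 to 0.0827. *Ctsh*, which encodes the lysosomal protease cathepsin H, was at 91.7, 24.4 and 38.3 FPKM at D6 and 144, 165 and 168 at D12. *Srgn*, which encodes the granule proteoglycan serglycin, was at 551, 177 and 317 against 681, 909 and 855. *Ubd*, the ubiquitin-like modifier FAT10 known from mature mTECs, was at 896, 433 and 543 against 1066, 1390.3 and 1410.1, and *Hdc*, the enzyme that makes histamine, at 102, 15.7 and 45.4 against 167, 218 and 178. For all of them D10 was above every D6 sample. None of the 9 had an interaction with cell type below an adjusted p of 0.335, and their cTEC log2 fold changes ran from 0.12 to 2.28.

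The markers of mTEC maturation were uneven. *Aire* was at 116, 26.7 and 46.4 FPKM at D6, 88.01 at D8, 165 at D10 and 151, 145 and 149 at D12. The D12 samples lay within a few FPKM of one another, while D6 replicate 1 was well above the other D6 samples, so the groups did not overlap but the log2 difference of 1.46 had an SE of 0.55 and an adjusted p of 0.384. *Cd80*, the costimulatory ligand that marks mature mTECs, was at 5.60, 4.16 and 5.42 at D6, 6.51 at D8, 14.8 at D10 and 23.2, 29.97 and 26.7 at D12 (log2 2.48, SE 0.84, adjusted p 0.317). *Fezf2*, the other regulator of peripheral antigen expression, was at 185, 188 and 189.6 FPKM at D6 and 180.1, 189 and 188 at D12, with overlap (log2 0.00, SE 0.18), and the sign of its fold change depended on the setting.

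Of 14 tested genes of the list of *Aire*, *Fezf2* and AIRE partners, 6 were higher and 8 lower. The median of the list was -0.07 (-0.16 to 0.02 over the alternatives tried), and 2 genes, *Aire* among them, were apart between the groups in the upward direction, which was so for 12.3% of all genes tested. On the list of costimulatory and checkpoint ligands 8 of 11 genes were higher, with a median of 0.89 and no gene called. *Icam1* and *Cd40* overlapped between the groups.

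MHC class II transcripts were high on both days. Of 12 tested genes, 10 were higher and 2 lower, with a median of 0.28. *H2-Aa* was at 3575, 2979.7 and 3217 FPKM at D6 and 3772, 4396 and 4456 at D12 (log2 0.38, SE 0.16, adjusted p 0.47), without overlap. *Cd74*, the invariant chain, was at 7639, 6281 and 7167 and 7696, 8048 and 8284. Of the 2 lower members *Ctsl* had the larger fall, and is counted on the FOXN1 list as well. The other was at log2 -0.11, also without overlap between the groups. MHC class I and immunoproteasome genes were higher for 14 of 17 tested, with a median of 0.21, and *B2m*, the light chain of class I, overlapped between the groups. *Calr*, the chaperone calreticulin of the peptide-loading complex, was at 802, 529 and 539.6 against 886, 923 and 867 (adjusted p 0.204).

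Genes of peripheral tissues were higher as a group. All 23 tested members of the tissue-restricted list had log2 fold changes above 0, with a median of 2.22, and in 5 of the 23 every D12 sample lay above every D6 sample, beside 12.3% of all genes tested. None was called, and 6 had an unadjusted p under 0.05, which 4.74% of all genes tested had in that direction. *Csn2*, the β-casein of milk, was at 190.3, 27.2 and 42.7 FPKM at D6, 104 at D8, 364 at D10 and 231, 443 and 337 at D12 (log2 2.32, SE 0.54, adjusted p 0.0929). *S100a8* and *S100a9*, the calprotectin subunits of neutrophils, were at 54.3, 7.0 and 13.6 against 90.2, 154 and 108 and at 39.04, 3.05 and 11.3 against 40.7, 85.7 and 72.5. *Apoa1*, a liver and gut apolipoprotein, was at 15.4, 3.97 and 4.84 against 48.9, 48.7 and 60.1 (adjusted p 0.306). For each of these 4 genes D6 replicate 1 was the highest D6 sample and stood nearer to D12.

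The cornified, keratinocyte-like list, genes of the terminal stage of mTEC differentiation, had 21 of 24 tested members higher, with a median of 1.23, and in 11 every D12 sample lay above every D6 sample (12.3% of all genes tested). *Sprr1a*, a cornified envelope precursor, was at 44.1, 8.84 and 20.03 FPKM at D6, 31.9 at D8, 78.1 at D10 and 50.4, 72.99 and 60.8 at D12 (log2 1.65, SE 0.52, adjusted p 0.268). *Krtdap*, a keratinocyte differentiation peptide, was at 111, 43.2 and 82.9 against 180.5, 112 and 123, a narrow separation in which the lowest D12 sample exceeded D6 replicate 1 by less than 1 FPKM. *Dsg1a*, a desmosomal cadherin, and *Asprv1*, an epidermal protease, overlapped between the groups.

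The microfold and enterocyte list had 20 of 24 tested members higher, with a median of 1.87, and 8 were apart in the same way (12.3% of all genes tested). *Reg3g*, an antibacterial lectin of the gut, was at 123, 33.2 and 38.6 FPKM at D6, 92.4 at D8, 203 at D10 and 155, 237 and 266 at D12 (log2 1.82, SE 0.45, adjusted p 0.116). *Saa3*, an acute-phase serum amyloid, was at 35.6, 3.18 and 14.9 against 86.9, 64.2 and 85.2 (adjusted p 0.554). *Cdx1*, an intestinal transcription factor, was at 66.8, 12.3 and 23.3 against 54.6, 74.98 and 84.3, with D6 replicate 1 inside the D12 range. Tuft cell genes gave another picture, with 8 higher and 14 lower of 22 tested, a median of -0.12 that ran from -0.26 to 0.10 over the alternatives tried, and none with an unadjusted p under 0.05. *Spib*, the most abundant of them, was at 183, 88.8 and 115 and 132, 133 and 133.

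**Figure D3:**
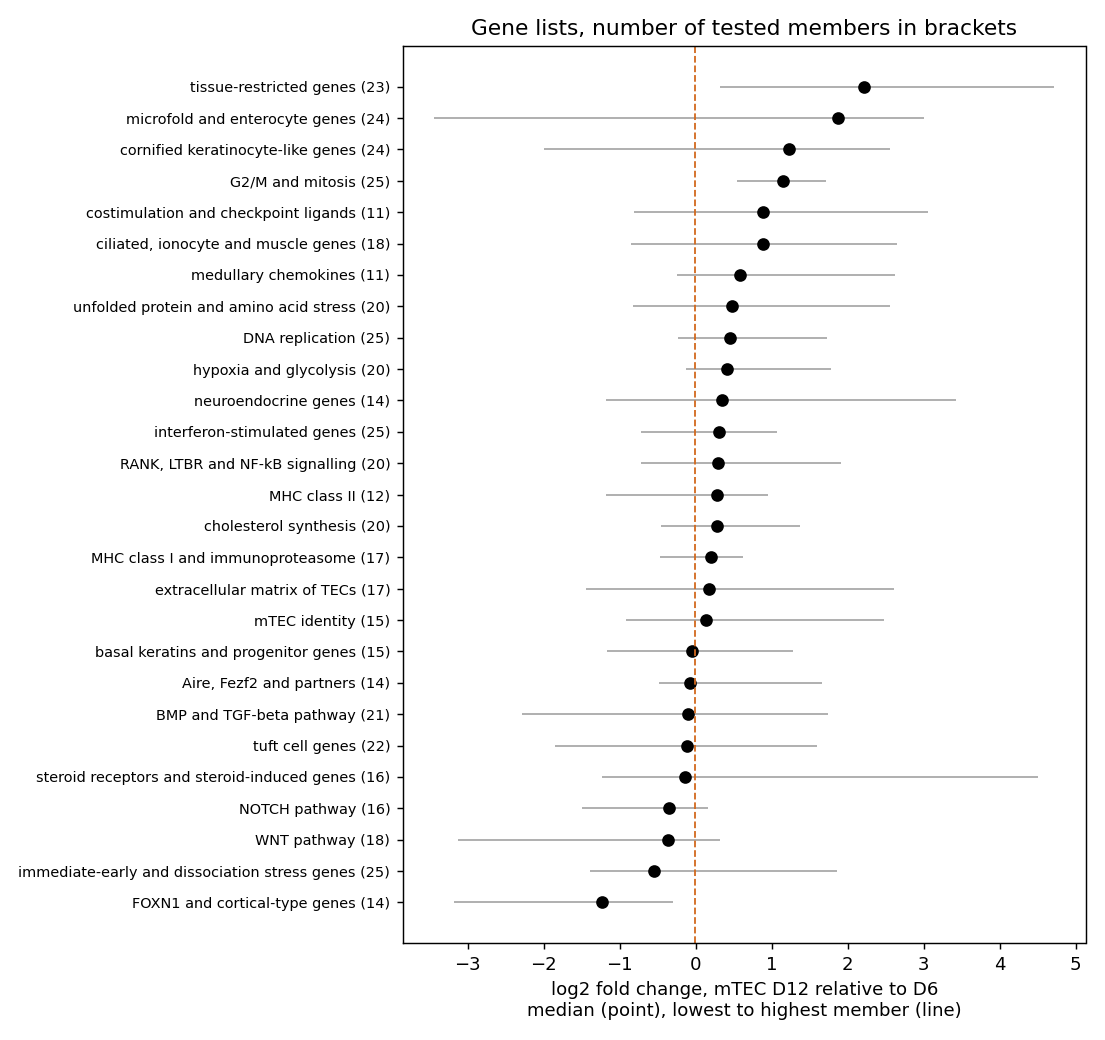
Median log2 fold change, D12 relative to D6, of 27 gene lists (points), with the range from the lowest to the highest of the tested members (thin lines) and the number of tested members beside each name. Of the lists drawn, the FOXN1 list lies farthest to the left at -1.23 and the tissue-restricted list farthest to the right at 2.22. The median of all 17743 genes, drawn as a dashed line, lies at 0.00. Lists of other cell types and of mitochondrially encoded genes are not drawn, among them the erythroid list (5 tested) with a median of 2.75.

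Cell division genes were higher at D12. All 25 genes of the G2/M list had log2 fold changes above 0, with a median of 1.15. In 5 of the 25 every D12 sample lay above every D6 sample, beside 12.3% of all genes tested, and none was called. *Mki67*, the proliferation antigen, was at 19.3, 8.44 and 10.7 FPKM at D6, 14.3 at D8, 23.9 at D10 and 26.7, 32.2 and 22.2 at D12 (log2 1.15, SE 0.41, adjusted p 0.358). *Top2a*, the topoisomerase of dividing cells, was at 41.7, 18.7 and 16.98 against 49.4, 67.4 and 51.6. *Cdk1*, the mitotic kinase, was at 38.5, 9.38 and 17.1 against 33.7, 59.3 and 59.8, where D6 replicate 1 exceeded one D12 sample. DNA replication genes were higher for 21 of 25 with a smaller median, 0.46, and *Pcna*, the replication clamp, was at 72.7, 42.6 and 51.7 against 75.6, 84.5 and 66.8.

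The general medullary and keratin markers differed less. *Ccl21a*, the CCR7 ligand of the medulla, was at 11478, 10541 and 12968 FPKM at D6 and 10632, 8446 and 10219 at D12, with overlap (log2 -0.24, SE 0.22); it has near-identical copies, so its reads may be split among them. *Krt5*, a basal keratin, was at 2788, 4409.7 and 4819 against 2937, 2715 and 2693, *Krt8*, a keratin of simple epithelia, overlapped as well, and *Krt18*, its partner, was at 2547, 4918 and 4428 against 2183, 1871 and 1922 without overlap (adjusted p 0.261). *Krt14* had a log2 fold change of 0.19. Basal keratin and progenitor genes as a list were balanced, 7 higher and 8 lower of 15.

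NOTCH genes were lower in 15 of 16 tested, with a median of -0.35 and 4 apart in every sample in that direction (6.92% of all genes tested). Besides *Dll4*, *Heyl* and *Hey1*, transcription factors induced by NOTCH, were at 36.9, 69.5 and 55.9 against 53.6, 19.6 and 40.6 and at 30.3, 57.3 and 49.8 against 28.2, 29.2 and 21.3. *Heyl* overlapped between the groups in FPKM through D12 replicate 1, although its fitted counts were lower at D12 (log2 -1.135, adjusted p 0.14 in limma-voom). *Hey1* did not overlap, and *Hes6* was at 255, 243 and 240.4 against 193, 107 and 153 (adjusted p 0.385). WNT genes were lower in 13 of 18, with a median of -0.36, and *Wnt4*, a WNT ligand that promotes *Foxn1* expression in thymic epithelium, was at 175, 275 and 266 against 122, 78.5 and 102 (log2 -1.24, SE 0.45, adjusted p 0.359). None of either list was called.

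Among smaller shifts, the interferon list was higher in 21 of 25 with a median of 0.31, and its member *Ifit3*, an antiviral effector, was at 158, 109 and 142 FPKM against 256, 226 and 279. *Ifit3* reached an adjusted p of 0.0198 with a fold-change below 2 (log2 0.91, SE 0.16); it was singled out after its values were seen. Unfolded protein response genes were higher in 17 of 20 with a median of 0.47, led in level by *Hspa5* at 496, 309.6 and 318 against 597, 630.4 and 653 and *Hsp90b1* at 376, 244 and 263 against 495, 559 and 506, both chaperones of the endoplasmic reticulum. Glycolysis genes were higher in 18 of 20 with a median of 0.41, and in *Pkm*, a glycolytic kinase, the D12 samples (270.4, 259.9 and 217) lay above the D6 samples (174, 185 and 192). No gene of these lists was called.

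The levels of the single D8 and D10 samples, which entered no test, were compared with the D6 and D12 means. Of the 19 genes at adjusted p ≤ 0.05, the D8 level was nearer to the D6 mean in 17 and the D10 level was nearer to the D12 mean in all 19, on log2(FPKM + 0.5). Of the 1527 genes with an unadjusted p under 0.05, these counts were 1224 (80.2%) and 1183 (77.5%), against 64.6% and 52.5% of all genes tested. On the FOXN1 list D8 was nearer to D6 in 10 of 14 (71.4%) and D10 nearer to D12 in 13 of 14 (92.9%). On the G2/M list these counts were 16 of 25 (64.0%) and 25 of 25 (100%). At D8 the G2/M share was thus about that of all genes tested, 64.6%, and the FOXN1 share was not far above it. With 1 sample a day there is no replicate check, and genes of one library are not independent.

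**Figure D4:**
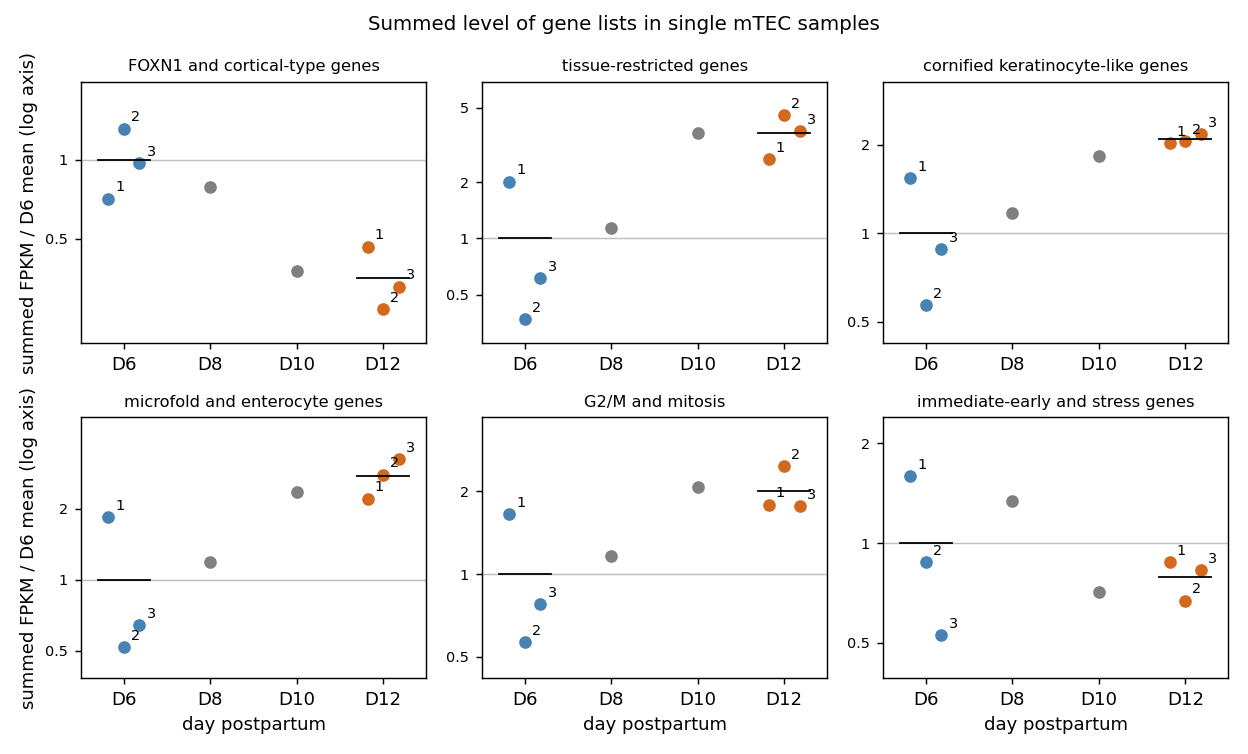
Summed FPKM of 6 gene lists in single mTEC samples, divided by the mean of the 3 D6 samples and drawn on a log axis, at D6 (3 samples, numbered by replicate), D8, D10 and D12 (3 samples). The FOXN1 list is lower and the tissue-restricted, cornified, microfold and G2/M lists are higher in every D12 sample than in any D6 sample, and D6 replicate 1 stands between the other D6 samples and D12 in all 5 of them; the immediate-early list is highest in D6 replicate 1 and at D8.

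D6 replicate 1 also differed in transcripts that respond to handling. The summed FPKM of 25 immediate-early and dissociation genes was 12690 in D6 replicate 1, 6985 and 4206 in the other D6 samples, 10630 at D8, 5662 at D10 and 5336 to 6973 at D12. *Fos*, an immediate-early transcription factor, was at 2789, 1380.0 and 510.4 FPKM at D6, 2348 at D8, 937 at D10 and 1234, 605 and 1042 at D12, with overlap. Their part in the differences between D6 and D12 was not tested. Without D6 replicate 1, 27 genes were called, 14 higher and 13 lower, among them the 3 called with it.

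Transcripts of other cell types differed in level. Thymocyte transcripts summed to 82.1 to 120.5 FPKM at D6 and 90.2 to 119.5 at D12, with 12 higher and 12 lower of 24 tested. This sum and those below cover every gene of a list found in the data, also those not tested. Macrophage and dendritic cell transcripts were higher in 17 of 19 tested, with a median log2 fold change of 1.24. Of the 19, 9 were apart upward, beside 12.3% of all genes tested, and 0 downward. The list summed to 466 to 581 at D6 and 611 to 736 at D12, most of it *Cst3*, a widely expressed protease inhibitor gene, at 466, 412 and 503 and 430.4, 462 and 512. *Lyz2*, the lysozyme of myeloid cells, was at 37.4, 8.29 and 13.3 against 47.6, 86.9 and 90.3 (log2 2.09, SE 0.51, adjusted p 0.109), and *C1qa* at 1.65 to 6.13 against 10.9 to 13.9. The median log2 fold change was 1.79 for B cell, 2.75 for erythroid and 0.29 for endothelial and mesenchymal transcripts. B cell transcripts summed to 11.7 to 52.0 and 30.3 to 58.4, erythroid transcripts to 3.70 to 22.0 and 30.2 to 49.7, and endothelial and mesenchymal transcripts to 445 to 661 and 573 to 743. Most of the last sum was *Acta2*, smooth muscle actin, at 304, 301 and 450.5 against 343, 451 and 408, and *Dcn*, the fibroblast proteoglycan decorin, at 91.9, 98.1 and 144 against 85.8, 71.2 and 82.5. mTECs themselves express many such genes, and the part of other cells in the higher groups was not tested.

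For the genes higher at D12 the test found no difference between mTECs and cTECs past the threshold. In cTECs the log2 fold change was 1.30 for *Aire*, 1.40 for *Cd80*, 2.66 for *Sprr2a2* and 3.68 for *Ncf1*, and the interactions had adjusted p-values from 0.697 to 0.999. The cTEC levels of 3 of these genes were low. *Ncf1* was at 0.07, 1.10 and 0.75 FPKM at D6 and 1.84, 3.05 and 3.57 at D12. *Cd80* was at 0.48, 0.64 and 0.77 against 0.87, 3.54 and 2.23, and *Aire* at 3.41, 0.81 and 1.88 against 2.63, 6.39 and 5.47. *Sprr2a2* was at 124, 189 and 215 against 615, 803 and 1947. How far mTECs carried over in the sort contribute to these cTEC values was not tested. *Csn2* had 4.39 in cTECs and an interaction of -2.23 (SE 2.16, adjusted p 0.886). A p that misses the threshold does not show that both cell types changed alike. The genes past an adjusted p of 0.05 in this test were *Fn1*, *Prss16*, *Synm*, *Mmp9*, *Gm1866* and *Gm45200*, each with a change in mTECs below that in cTECs.

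**Figure D5:**
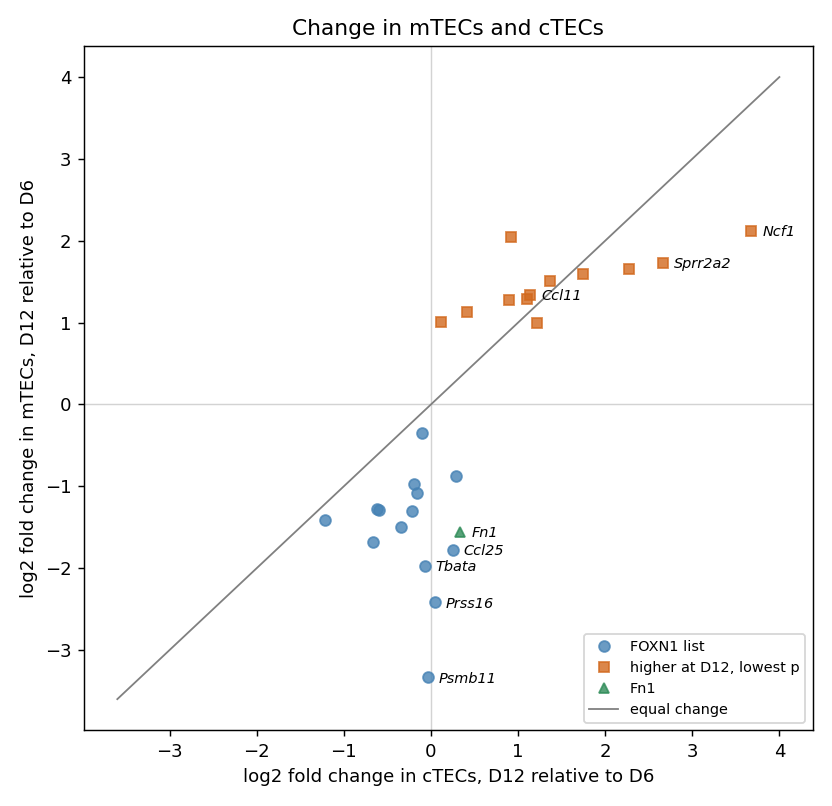
Log2 fold change, D12 relative to D6, in cTECs (x axis) and mTECs (y axis) from the fit of both cell types, with the line of equal change, for genes of the FOXN1 list (circles) and the genes higher at D12 that are named by lowest p (squares). *Fn1* (triangle) and the 4 labelled FOXN1 list genes lie far below the line, with cTEC changes between -0.07 and 0.34, while the genes higher in mTECs lie on both sides of it.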

How the data were processed

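RNA of sorted mTECs was sequenced with polyA-selected stranded libraries on a NextSeq500. The authors trimmed reads with Trimmomatic 0.35, aligned them to GRCm38 with STAR 2.5.1b and quantified genes with RSEM 1.2.28, after bcl2fastq 2.20, per the labels. They deposited an expected count per gene and sample, which RSEM estimates and does not normalize, and of which 92.6% to 96.2% were whole numbers in the samples used. The deposited FPKM values are scaled by transcript length and sequenced fragments, and they served for levels. The annotation release and the strand setting of the counting are not given in the sources used here, so reads of overlapping antisense pairs such as *Aire* and *Dnmt3l*, *Fn1* and *Apol7d* or *Ncf1* and *Gtf2ird2* cannot be told apart. Symbols and coordinates came from GENCODE M21, which matched 50376 of 50600 identifiers without their version.

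After rounding, expected counts were scaled by TMM (edgeR 4.0.16) and fitted by voom (limma 3.58.1, R 4.3.3). The filter kept genes whose FPKM averaged 0.5 or more in the 28 mTEC samples. The fit held the 18 mTEC samples of the 6 time points with 3 replicates, 1 mean each (12 residual degrees of freedom), and the interaction fit the 36 samples of both cell types (24 residual degrees of freedom). Both were tested on simulated data first. Title numbers did not pair the D6 and D12 samples, which came from different mice. Some cTEC and mTEC samples of a time point share a title number and may share a mouse, but the interaction fit treated all samples as independent. The p-values of both fits rest on the spread between mice within a group, pooled over the fit and not over D6 and D12 alone. Total expected counts per sample, from 4561208 upwards, limit what could be detected among low genes. Promoters came from RefSeq. Figures and counts used Python 3.11.15, pandas 2.3.3, NumPy 2.4.6 and Matplotlib 3.10.9.

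The 34 gene lists (607 of 608 symbols matched) and the comparison itself were chosen with earlier results of these data known. Genes named are those called that do not overlap and average 5 FPKM or more where they are higher, up to 12 in each direction. Places left were filled, under the same limits on overlap and level, with the lowest p at a change of 2-fold or more. Also named are up to 4 members with the highest FPKM of each list, and *Aire*, *Fezf2*, *Cd80*, *Foxn1*, *Mki67*, *Ccl21a*, *H2-Aa* and *Prss16*. *Psmb11*, *Cnmd*, *Il7* and the other members of the FOXN1 list, *Hey1*, *Insm1*, *Ifit3*, *C1qa*, *Abcc2*, *Ltbp4*, *Tmem131l*, *Gm45837*, *Mmp9*, *Gm1866* and *Gm45200* were named in addition to complete a list or a count. Other genes that the rule names enter only the counts of their lists. Alternatives were edgeR's quasi-likelihood test, DESeq2 1.42.0, limma-trend on log2(FPKM + 0.5) or with 0.1 added, sample quality weights, other scalings and filters, fits of 6 or 28 samples, libraries drawn down to one depth, a replicate block and leaving out each sample. For the interaction, a further alternative took the mouse, read from title numbers, as a random block. The correlation within a mouse was 0.033, and the interaction of *Fn1* had an adjusted p of 0.00255 in limma-voom.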

Additional observations from a re-analysis of the deposited data

Results flagged for a closer look

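*Fn1* was marked because its change from D6 to D12 differed between the cell types by a test of the difference itself. The interaction, the mTEC change minus the cTEC change, was -1.895 on the log2 scale (SE 0.29, adjusted p 0.00367, limma-voom). All 3 mTEC samples of D12 lay below all 3 of D6, and the fitted change was -1.56 in mTECs and 0.34 in cTECs. It had an adjusted p of 0.0714 in the edgeR quasi-likelihood test. In limma-voom *Prss16* lay just outside the threshold of the interaction, at -2.46 (adjusted p 0.0173). Groups of 3 samples were not searched for single outlying samples.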

How the results depend on the processing

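The number of genes called in mTECs was the least stable result. The main count was 3, and it was 0 in the edgeR quasi-likelihood test, in limma-trend on log2(FPKM + 0.1) and in the fit of the 6 samples alone, where 1148, 1309 and 2853 genes had an unadjusted p under 0.05. It was 1 in limma-trend on log2(FPKM + 0.5), in the fit of all 28 mTEC samples, with libraries drawn down to the shallowest and with the replicate block. The gene called in limma-trend was not among the main 3. In the other fits just named it was 1 of the main 3 and lower at D12, so *Ccl11* was called in none of them. The count was 6 without TMM, 17 without the filter on low values, 19 at adjusted p ≤ 0.05, 57 in DESeq2 and 890 with sample quality weights, where D6 replicate 3, the shallowest library, had a weight of 13.8. Leaving out 1 sample gave 0 to 27, with 27 without D6 replicate 1 and 0 without D12 replicate 2, D12 replicate 3 or D6 replicate 3, where 1257, 1333 and 1151 genes had an unadjusted p under 0.05. The adjusted p of *Ccl11* ran from 3.84e-07 to 0.35 and that of *Fn1* from 9.42e-07 to 0.388 over the alternatives without a left-out sample.

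The interaction count, 1 in the main fit, was 0 in edgeR, 6 at adjusted p ≤ 0.05, 13 without the filter, 52 with quality weights and 0 to 6 with 1 sample left out. Both counts stayed within 1.5 times in the other alternatives. Same-numbered D6 and D12 samples correlated at -0.13, -0.12 and 0.04 in their deviations, so the replicate block pairs nothing.

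Of the 94 named genes, 5 changed direction in at least 1 of the 19 alternatives. *Fezf2* turned to -0.003 in edgeR, -0.015 in both limma-trend fits, -0.006 without TMM, -0.013 without the filter and -0.086 in the fit of 6 samples, with -0.021 to 0.032 when 1 sample was left out. *Fos* turned to 0.258 with quality weights and *B2m* to -0.003 without the filter. With 1 sample left out *Cd83* ran from -0.776 to 0.083 and *Spib* from -0.140 to 0.453, turning without D6 replicate 2. The median changed sign or reached 0 in at least 1 alternative for 7 of the 34 lists, those of *Aire* and partners, tuft cells, BMP and TGF-β, steroid response, immediate-early genes, thymocytes and mature T cells. The other 27 kept their sign, that of the FOXN1 list between -1.62 and -1.01 and that of the tissue-restricted list between 1.38 and 3.30.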

Other observations

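Of 20 genes of RANK, LTBR and NF-kB signalling, 16 were higher at D12 with a median log2 fold change of 0.30, and *Nfkb2*, a subunit of the non-canonical pathway, was at 144, 93.6 and 113 FPKM at D6 and 135, 147 and 159 at D12 with overlap. Medullary chemokines were higher in 7 of 11, with a median of 0.58. BMP and TGF-β genes were lower in 13 of 21, with a median of -0.10, and *Id4*, an inhibitor of basic helix-loop-helix factors, was at 29.8, 50.4 and 45.3 against 27.4, 18.1 and 26.7 without overlap (adjusted p 0.542, limma-voom). Steroid receptors and steroid-induced genes were lower in 11 of 16, with a median of -0.13. Cholesterol synthesis genes were higher in 16 of 20, with a median of 0.28, while *Srebf2*, their main transcriptional activator, was at 46.95, 64.1 and 54.9 against 39.9, 40.4 and 37.9 (adjusted p 0.365). None of these genes was called.

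Further mimetic and admixed transcripts were mixed. Neuroendocrine genes were higher in 10 of 14, with a median of 0.35, and *Insm1*, a neuroendocrine transcription factor, was at 23.98, 7.95 and 12.1 FPKM at D6, 17.1 at D8, 31.2 at D10 and 32.4, 49.6 and 30.6 at D12 (log2 1.49, SE 0.39, adjusted p 0.145). Its D12 samples all lay above its D6 samples. Ciliated, ionocyte and muscle genes were higher in 13 of 18, with a median of 0.88. The mTEC identity list was higher in 10 of 15, with a median of 0.14. *Klf2*, a transcription factor of mature T cells and also of stressed epithelium and endothelium, was at 221, 81.7 and 29.7 at D6 and 44.8, 29.8 and 26.4 at D12, with D6 replicate 1 the highest. The list of mature T cell transcripts to which it belongs was higher in 8 of 14. *Col3a1*, a fibroblast collagen, was at 6.89, 8.72 and 10.9 against 37.9, 32.2 and 34.7 (adjusted p 0.109). Mitochondrially encoded genes were higher in 9 of 13, and *mt-Co1*, a subunit of cytochrome c oxidase, was at 4573, 4045 and 4758 against 5357, 7124 and 6338. Several mitochondrial genes that every cell uses were listed at 0 in single libraries, so their fold changes are not given.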
